A study of Mus musculus with 2 samples.

Results

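The miR-379 to miR-410 cluster is a dense array of microRNA hairpins at the end of the Dlk1-Dio3 imprinted region on mouse chromosome 12. Its members were taken by position. They are the microRNA genes of the count tables that lie on the plus strand of mm10 chromosome 12 from position 109709060 to 109747960, with Mir134, Mir329, Mir381 and Mir485 left out. This gave 35 of the 2202 microRNA genes in the tables. The data came from 1 group of 2 microRNA-seq libraries, a method that sequences short RNA, made from tissue labelled as a layer of hippocampus. The mice were adult males of 8 to 10 months with the strain label 5xFAD/CAST. 5xFAD mice carry transgenes driven by the neuronal Thy1 promoter and model Alzheimer disease. CAST is a strain derived from wild mice. Both libraries came from mice with this label, and no control was analysed here, so the data give levels and the difference between 2 libraries, not an effect of genotype or age. The labels call the libraries biological replicates, numbered 1 and 2, but name 1 donor record for both, so whether they came from separate animals is not known, and the spread between them may be technical.

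Replicate 1 held 3421977 reads assigned to microRNA genes and replicate 2 held 2820468. Of 17 neuronal marker microRNA genes 13 were detected, with summed levels of 33980 and 35553 CPM (reads per 1000000 assigned reads) in replicates 1 and 2. The 9 muscle and liver markers summed to 68.1 and 62.0 CPM, with 4 detected and Mir1a-1 and Mir133a-2 at 0. Among the neuronal markers Mir124a-2 and Mir124a-3 were at 0. Multimapping reads are given without a gene in the tables, so a 0 at a gene with copies elsewhere does not show that its microRNA was absent. Detection required 10 or more reads in each library, which held for 389 of the 2202 genes (17.7%).

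MicroRNAs are cut from hairpins in longer transcripts by Drosha and Dicer. One arm of the hairpin then guides Argonaute to messenger RNAs, which it recognises mainly through the seed, bases 2 to 8. The hairpins of this array are processed from noncoding transcripts made from the maternal chromosome, among them Mirg, and are known for high expression in brain. In cultured neurons the array is induced by activity through the transcription factor Mef2, and its microRNAs are known for roles in dendrite growth and synapse function. The deposited counts are not split by parental allele, so imprinting itself was not measured.

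The array spanned 38.901 kb, with a median gap of 640 bases between neighbouring members (range 20 to 4368). In GENCODE M21 the gene Mirg starts at position 109729764, so 23 of the members, from Mir379 to Mir544, lay upstream of the annotated Mirg. Of the other 12, Mir377 and Mir410 lay wholly within a Mirg exon. Mir382, Mir668, Mir412, Mir369 and Mir3072 overlapped an exon in part, and Mir453, Mir154, Mir496a, Mir541 and Mir409 lay in introns. Mir3072 lies beyond Mir410, and Gm27379 is a predicted hairpin between Mir539 and Mir544. The members Mir299a, Mir380, Mir376a, Mir539 and Mir409 each overlap a microRNA gene annotated on the minus strand (Mir299b, Gm25750, Gm25252, Gm44322 and Gm24321). Reads of these 5 members lay on the plus strand, and the minus strand there held 2 reads in replicate 1, both at Mir299a, and 0 in replicate 2. Mir411, Mir758, Mir376c, Mir376b and Mir487b each share a stretch of 20 bases with another hairpin of the array and held 34.5% and 26.5% of the members' reads. Reads that fit several places were not assigned to a gene, so the levels of these 5 are less certain.

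RefSeq (GRCm38.p6) listed mature sequences for 34 of the 35 members, Gm27379 being the one not matched, with 64 sequences of 19 to 25 bases in all. For Mir487b, Mir376c, Mir539 and Mir453 only 1 mature sequence was matched. Counts of arms and seeds below cover the matched sequences only. The counts are per hairpin, so reads of the 5p and 3p arm cannot be told apart. The members with the 10 highest levels are shown first because they carried most of the reads. Sequences run 5′ to 3′, and capitals mark the seed.
miR-382-5p: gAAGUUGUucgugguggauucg
miR-382-3p: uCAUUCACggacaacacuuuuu
miR-487b-5p: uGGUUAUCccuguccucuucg
miR-541-5p: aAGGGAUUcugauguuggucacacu
miR-541-3p: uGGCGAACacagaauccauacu
miR-411-5p: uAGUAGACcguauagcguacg
miR-411-3p: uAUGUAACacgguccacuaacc
miR-379-5p: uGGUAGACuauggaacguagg
miR-379-3p: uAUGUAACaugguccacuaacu
miR-369-5p: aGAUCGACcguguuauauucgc
miR-369-3p: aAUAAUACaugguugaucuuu
miR-376a-5p: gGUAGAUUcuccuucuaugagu
miR-376a-3p: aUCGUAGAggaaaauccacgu
miR-409-5p: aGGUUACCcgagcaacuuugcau
miR-409-3p: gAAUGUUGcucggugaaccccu
miR-154-5p: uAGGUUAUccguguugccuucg
miR-154-3p: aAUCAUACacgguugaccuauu
miR-667-5p: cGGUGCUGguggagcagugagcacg
miR-667-3p: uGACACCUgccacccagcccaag

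The 64 arms held 58 different seeds, and 6 seeds were shared by arms of a pair of members. The first pair is visible above, since miR-379-3p and miR-411-3p share the seed AUGUAAC. The others are shown to let the pairs be compared, and the miR-379-5p line above belongs with miR-1193-5p. The last line, miR-376b-3p, shares its seed with no other arm and is shown for comparison with miR-376a-3p.
miR-1193-5p: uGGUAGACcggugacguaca
miR-1197-5p: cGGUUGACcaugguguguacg
miR-758-5p: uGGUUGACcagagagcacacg
miR-453: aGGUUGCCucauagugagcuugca
miR-496a-5p: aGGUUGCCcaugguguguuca
miR-494-5p: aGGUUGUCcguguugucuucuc
miR-410-5p: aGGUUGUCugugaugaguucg
miR-376c-5p: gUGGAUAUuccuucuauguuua
miR-376b-5p: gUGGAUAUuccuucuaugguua
miR-376b-3p: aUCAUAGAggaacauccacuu

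The most alike arms of equal length were those of the miR-376 hairpins and of miR-379 and miR-411. Each change below is written as the base of the first arm named, the position counted from 1 at the 5′ end, and the base of the second arm. The arms miR-376c-5p and miR-376b-5p differ by U19G, outside the seed. The arms miR-379-3p and miR-411-3p differ by U10C and U22C, also outside the seed. The arms miR-376b-3p and miR-376a-3p differ by A4G, C13A and U20G, of which the first lies in the seed. The miR-376 hairpins are also known for adenosine-to-inosine editing in brain, which a count per hairpin cannot show. No mature sequence of a member occurred whole in a microRNA hairpin at another place in the tables.

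A motif search on the strand of the mature sequence showed the likeness of the array more widely. The motif GGUUGNC, where N is any base, occurred in 9 of the 64 member arms (14.1%) and in 13 of all 1679 mouse mature sequences of the table (0.774%). The overlapping motif GGUNGAC occurred in 8 of the 64 arms and likewise in 13 of 1679 (0.774%). Both were chosen after the sequences were seen. By local alignment of whole hairpins, the closest hairpin among the genes of the tables lay within the same stretch of chromosome for 24 of the 35 members, counting the 4 genes left out as part of the stretch. The plus strand of the stretch holds 39 of the 2202 genes. As a percentage of the hairpin's score against itself, these closest scores ran from 13.6% (Mir1193) to 59.8% (Mir376b). Among members whose closest hairpin lay elsewhere, the highest score was that of Mir544 (31.4%). Scores within the stretch were below it for Mir1193, Mir1197, Mir453, Mir409, Mir369 and Mir496a, and about equal for Mir323, so part of the likeness is weak. Mir376b and Mir376c were each other's closest, as were Mir495 and Mir543, and Mir411 and Mir758. Mir494 was the closest hairpin of Mir154, Mir382, Mir487b, Mir539, Mir323, Mir496a, Mir369 and Mir410, with scores from 22.2% (Mir369) to 50.8% (Mir154). Mir541, Mir667, Mir666, Mir668, Mir412 and Mir3072 were among the 11 whose closest hairpin lay elsewhere.

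Together the members took 127245 reads in replicate 1, or 3.72% of assigned reads (exact Clopper-Pearson 95% interval 3.70 to 3.74). In replicate 2 they took 82586 reads, or 2.93% (2.91 to 2.95), and the mean was 3.32% ± 0.56 (SD, n = 2). Of the 35 members 30 (85.7%) were detected. Mir1197, Mir654 and Mir453 had no read in either library, which allows up to 0.877 CPM in replicate 1 and 1.06 CPM in replicate 2 (3 reads, counting error only). Gm27379 had 1 read in replicate 1 and 0 in replicate 2. At the detection limit, Mir544 lay just outside with 12 and 5 reads, and Mir758 just inside with 16 and 18.

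**Figure D1:**
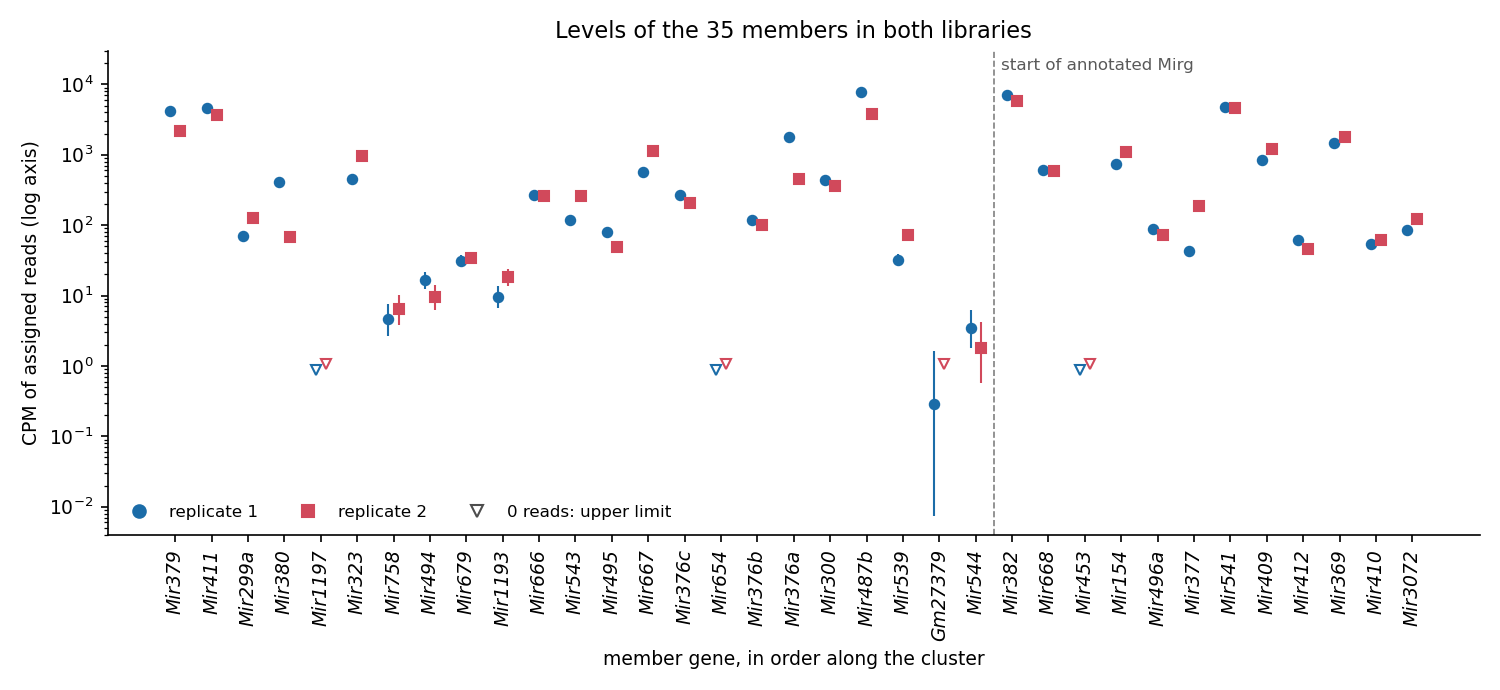
Level of each of the 35 members in order along the cluster, in CPM of assigned reads on a log axis. Circles are replicate 1, squares replicate 2, bars exact 95% intervals for counting error, and open triangles the upper limit where no read was counted; the dashed line marks where the annotated Mirg gene starts. High members such as Mir382 (7056 and 5842 CPM) and members with no reads such as Mir453 lie in the same stretch.

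Levels within the array were uneven. Mean levels of the 30 detected members ran from 5.53 CPM for Mir758 to 6449 CPM for Mir382, a ratio of 1166. There were 8 members at 1000 CPM or more, 12 between 100 and 1000, 9 between 10 and 100, and 1 below 10. The 5 highest members took 73.1% of the members' summed CPM and the 10 highest took 89.7%. Since the mature products are of nearly one length, levels are compared as CPM. Divided by the length of the hairpin, the same 10 members were the highest (10 of 10), an order computed after the data were seen.

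Mir382 (ENSMUSG00000065428.4; chromosome 12, 109733771 to 109733846, partly in an exon of Mirg) had 24147 reads in replicate 1 and 16477 in replicate 2, or 7056 and 5842 CPM. Mir487b (109727333 to 109727414, upstream of Mirg) had 26746 and 10615 reads, or 7816 and 3764 CPM. These were the highest members, and their order differed between the libraries: Mir487b was first in replicate 1 and Mir382 in replicate 2. Their mean levels, 6449 ± 859 and 5790 ± 2865 CPM (SD, n = 2), lay within the spread between the libraries.

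Mir541 (109742409 to 109742498, in a Mirg intron) had 4842 and 4576 CPM, with a mean of 4709 ± 188. Mir411 (109710175 to 109710256) had 4623 and 3693 CPM and a mean of 4158 ± 657. Mir379 (109709060 to 109709125), the first hairpin of the array, had 4201 and 2169.5 CPM and a mean of 3185 ± 1436. The same 5 genes led the array in both libraries. Mir541 was above Mir411, and Mir411 above Mir379, in each, although the means of Mir411 and Mir379 differed by less than the SD of Mir379.

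Mir369, whose 3p arm is known for binding AU-rich elements of the TNF messenger RNA, had 1483 and 1784 CPM. Mir376a had 1757 and 446 CPM, so its rank among the members was 6 in replicate 1 and 12 in replicate 2. Mir409 had 849.5 and 1213 CPM, Mir154 had 736 and 1077 CPM, and Mir667 had 566 and 1116 CPM. Mir369, Mir409, Mir154 and Mir667 were all higher in replicate 2, while the 5 leading genes and Mir376a were all higher in replicate 1. Of the 10 members highest by mean level, 9 were among the first 10 in each library.

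In the middle of the range, Mir323 had 447 and 956 CPM, Mir668 606 and 580 CPM, and Mir300 437 and 363 CPM. Mir666 had 266 and 259 CPM, a difference that did not pass the test described below. It did pass with DESeq2 size factors and in the counts that disregard strand. The paralogous hairpins of the miR-376 group, which lie close together, differed in level: Mir376a had a mean of 1102 CPM, Mir376c 239 CPM and Mir376b 108 CPM. The order of the 3 was the same in both libraries, but the mean of Mir376a has an SD of 928 CPM. Mir376c and Mir376b had 270 and 207 CPM, and 117 and 100 CPM, in replicates 1 and 2. Each of these shares 20 bases with another hairpin of the array, and Mir376a does not. Reads that fitted several places were not assigned, so the levels of Mir376c and Mir376b can be too low. How far this accounts for the difference from Mir376a was not tested.

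Among the lower members, Mir495, known in brain for targeting Bdnf, had 80.7 and 48.9 CPM. Its closest relative Mir543, one of the microRNAs of this array known to target N-cadherin, had 119.8 and 258 CPM, so that the pair differed more in replicate 2. Mir410, which gives the array its name at the other end, had 54.6 and 62.0 CPM. Mir299a had 69.6 and 127.6 CPM, Mir3072 86.2 and 122.7 CPM, Mir496a 88.3 and 73.4 CPM, and Mir412 62.2 and 45.7 CPM. Mir679 had 31.3 and 34.4 CPM, and Mir1193 had 9.64 and 18.4 CPM. Mir494, the closest hairpin of several other members, had 16.4 and 9.57 CPM. Mir758, the relative of the abundant Mir411, had 4.68 and 6.38 CPM. This pair thus stood at unlike levels, with Mir411 among the 5 highest members and Mir758 the lowest detected. Other pairs of closest hairpins stood nearer in mean level: Mir376b and Mir376c at 108 and 239 CPM, and Mir495 and Mir543 at 64.8 and 189 CPM. Mir411, Mir758, Mir376b and Mir376c each share 20 bases with another hairpin of the array, so their levels are less certain.

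**Figure D2:**
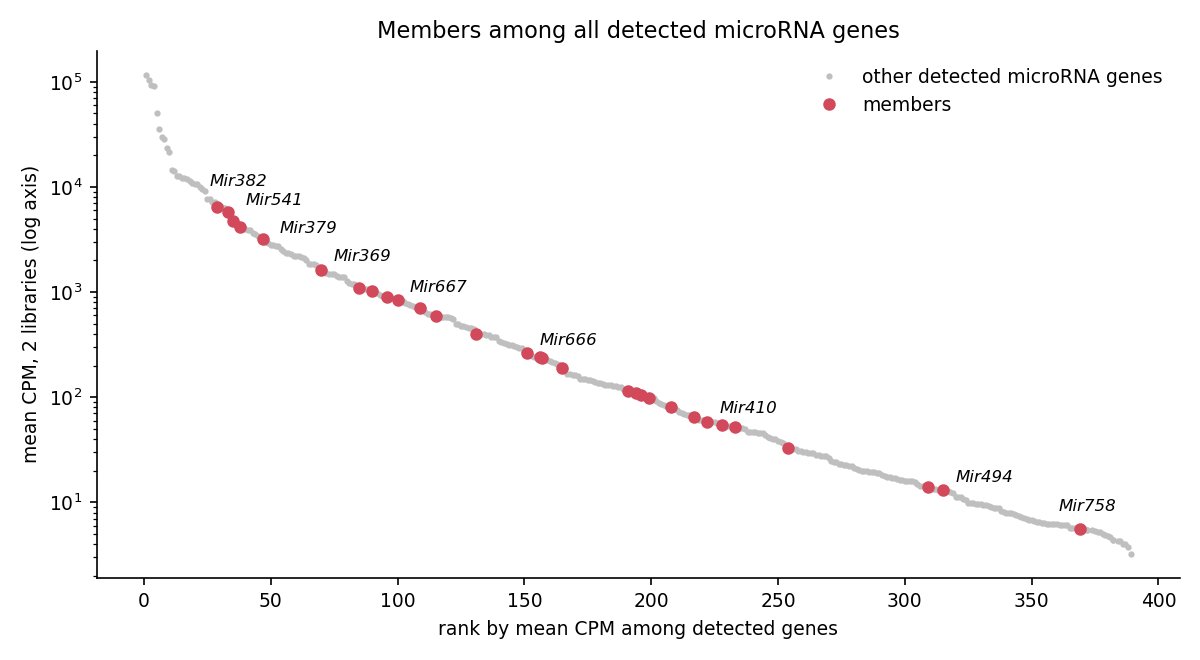
Mean level over 2 libraries (CPM, log axis) of all 389 detected microRNA genes by rank, with the 30 detected members as large points. Members lie from rank 29 (Mir382) to rank 369 (Mir758).

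Among all 389 detected genes none of the members was in the first 10, 5 were in the first 50 and 10 in the first 100. The median level was 239 CPM for the detected members and 105 CPM for all detected genes. Correlations of the levels of the 30 detected members with position and hairpin composition were small. Spearman's rho with log2 mean CPM was 0.10 for the distance from Mir379, 0.030 for GC content and 0.11 for the folding energy per 100 bases (RNAfold). Pearson's r was 0.15, -0.021 and 0.16. These are descriptions across genes of the same 2 libraries. Neighbouring detected members differed by a median of 2.19 on the log2 scale of level (29 pairs), against 2.83 for all 435 pairs.

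The other microRNA genes of the imprinted region, between the start of Meg3 and the end of Mirg on the plus strand, number 24, of which 20 were detected. They took 6.52% and 6.65% of assigned reads in replicates 1 and 2. The 6 genes opposite Rtl1, the paternally expressed gene that microRNAs from the maternal strand target, took 4.68% and 4.61%. The 9 genes from Meg3 to Rtl1 took 1.27% and 1.41%, and the 5 from Rian to Mir379 took 0.273% and 0.204%. The 4 genes left out by the rule took 0.295% and 0.417%: Mir485 had 1923 and 2798 CPM, Mir134 540 and 378 CPM, Mir381 344 and 804 CPM, and Mir329 139.7 and 189.7 CPM. The spread of the share between the libraries was 0.56 percentage points for the members and 0.092 for the 24 other genes (SD, n = 2), a difference that was not tested. Of the 20 other genes detected, 8 were higher and 9 lower in replicate 2 by the test described next.

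The libraries were compared gene by gene to see how far the members' levels repeated. For each detected gene, a two-sided exact binomial test set its 2 counts against library sizes scaled by TMM factors. Adjustment was by the Benjamini-Hochberg method over all 389 detected genes. This test compares 2 libraries beyond counting error and not conditions. Of the 30 detected members 26 passed at an adjusted p under 0.05, against 67.6% of all detected genes. Calls depended on depth: with 100 or more reads in each library, 24 of 26 members passed, against 86.3% of all 241 such genes. Of the 30 detected members 11 were higher in replicate 2 and 15 lower, against 33.9% and 33.7% of all 389 detected genes. Among the genes that passed, 11 of 26 members were higher and 15 lower, against 132 and 131 of all 263. Members differing at least 2-fold numbered 7, or 23.3% of those detected, against 22.4% of all detected genes. The median log2 ratio of replicate 2 to replicate 1 was -0.15 over the detected members and 0.053 over all detected genes. Without the 5 members that share 20 bases with another hairpin it was 0.038, so the median's sign rests on them. With the spread between the libraries as its error, the edgeR exact test passed none of the members and 0.514% of all detected genes. At an unadjusted p under 0.05 it passed Mir380, Mir376a and Mir377, and the lowest adjusted p of a member was 0.26. That error comes from the same 2 libraries, so failing the test does not show that a member was alike in both.

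**Figure D3:**
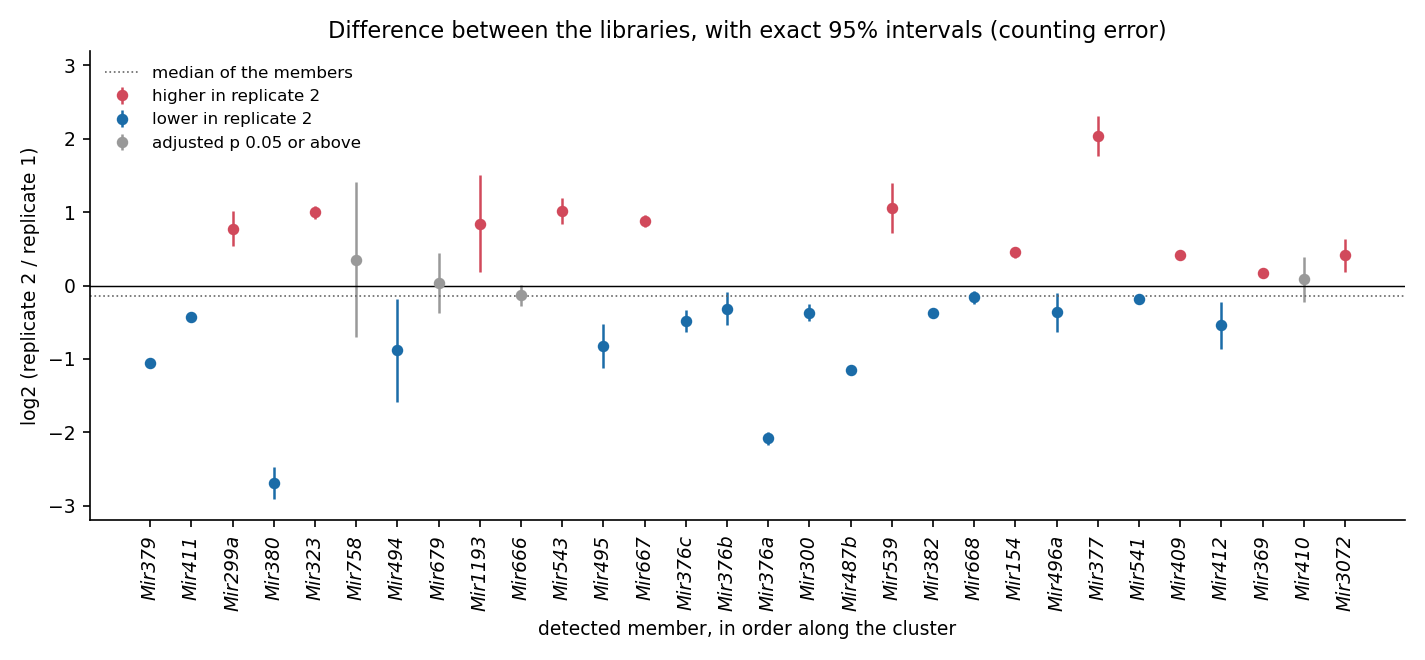
Log2 ratio of replicate 2 to replicate 1 for the 30 detected members in order along the cluster, on TMM-scaled counts, with exact 95% intervals for counting error. The 11 members higher and the 15 lower in replicate 2 are interspersed along the array, with a run of lower members from Mir376c to Mir487b, and range from -2.69 for Mir380 to 2.03 for Mir377. The 4 genes left out by the rule, of which 3 were higher and 1 lower in replicate 2, are not drawn. The run therefore holds among the detected members only.

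Members lower in replicate 2 were led by Mir380, with 1400 reads in replicate 1 and 192 in replicate 2 and a log2 ratio of -2.69 (exact 95% interval -2.91 to -2.47). Mir376a had 6014 and 1257 reads and a log2 ratio of -2.08 (-2.17 to -1.99). Mir487b stood at -1.15 (-1.19 to -1.12) and Mir379 at -1.05 (-1.10 to -1.01). Mir495 had 276 and 138 reads and a log2 ratio of -0.82 (-1.13 to -0.52). The remaining members that were lower were Mir494, Mir412, Mir376c, Mir411, Mir382, Mir300, Mir496a, Mir376b, Mir541 and Mir668, between -0.87 and -0.16.

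Members higher in replicate 2 were led by Mir377, known for raising fibronectin in diabetic kidney, with 145 and 524 reads and a log2 ratio of 2.03 (1.77 to 2.31). Mir539 had 111 and 203 reads and a ratio of 1.05 (0.71 to 1.40), and Mir543 had 410 and 729 reads and a ratio of 1.01 (0.83 to 1.19). Mir323 had 1528 and 2696 reads and a ratio of 1.00 (0.91 to 1.09). Mir667 had 1936 and 3148 reads and a ratio of 0.88 (0.80 to 0.96). The other 6 were Mir1193, Mir299a, Mir154, Mir409, Mir3072 and Mir369, between 0.84 and 0.17. The members that did not pass were Mir758 (0.35, -0.70 to 1.42), Mir410 (0.084, -0.22 to 0.39), Mir679 (0.038, -0.37 to 0.45) and Mir666 (-0.14, -0.28 to 0.006).

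Neighbours along the array did not move as one. In the 21 pairs of neighbouring detected members that both passed, 15 had opposite directions and 6 the same. With 11 members higher and 15 lower, opposite pairs are frequent in any order, and this count was not tested. Undetected or left-out hairpins can lie between such neighbours. Mir380 and Mir323, whose starts lie within 1 kb of each other, stood at -2.69 and 1.00, and Mir496a and Mir377 at -0.36 and 2.03. The median absolute difference in log2 ratio was 0.97 between neighbours (29 pairs) and 0.84 over all 435 pairs of detected members. For genes of 100 or more reads in each library, log2 ratios had an SD of 1.00 over 26 members and of 0.78 over the 215 genes that are no member; this difference was not tested. The order of levels was nevertheless similar in both libraries. Between the libraries, log2 CPM of the 30 detected members correlated with a Pearson's r of 0.944 and a Spearman's rho of 0.938, a description across genes. Over all 389 detected genes these were 0.966 and 0.958. Ranks among the members moved by a median of 1 place, and furthest for Mir380, by 9 places.

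**Figure D4:**
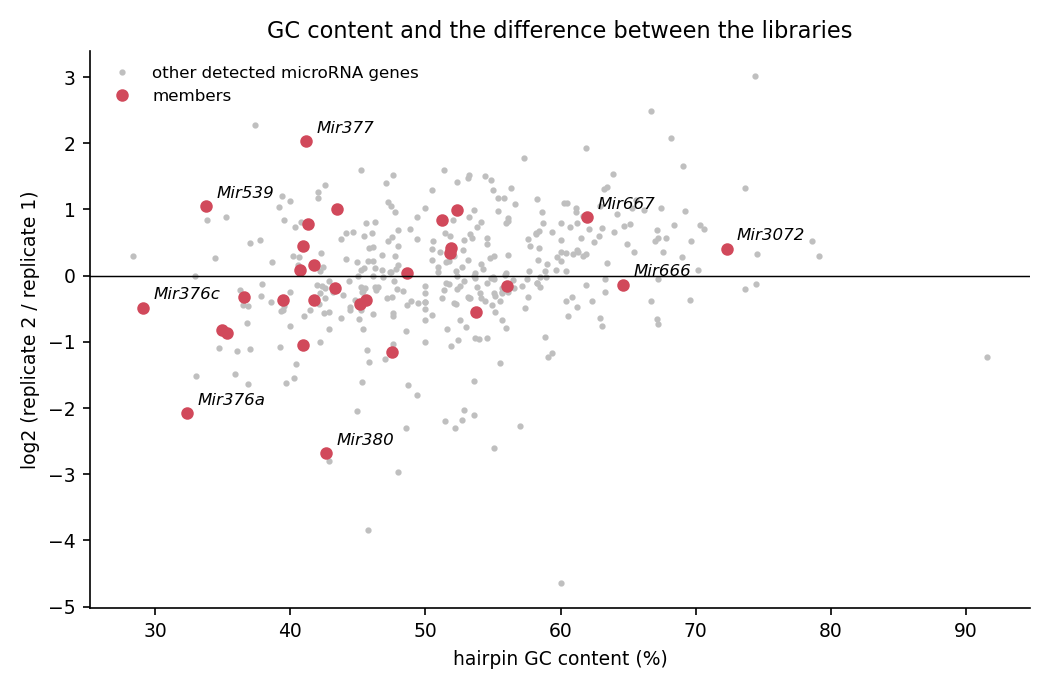
Hairpin GC content (%) against the log2 ratio of replicate 2 to replicate 1 for the 389 detected microRNA genes, with the 30 members as large points. Members lie towards the low end of GC content (median 43.0%, against 52.1% for all detected genes), and Mir380 and Mir376a have the lowest ratios among them.

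GC content of the hairpin differed between the array and other genes, and moved with the difference between the libraries. Detected members had a median GC content of 43.0%, against 52.1% over all detected genes, and ran from 29.1% in Mir376c to 72.3% in Mir3072. Over the 389 detected genes the log2 ratio correlated with GC content at a Spearman's rho of 0.27 and a Pearson's r of 0.24. Over the 30 detected members they were 0.29 and 0.27. Mir376a had 32.4% GC, Mir380 42.6%, and Mir377, which moved the other way, 41.2%. The markers of endothelial and mural cells summed to 21670 CPM in replicate 1 and 13158 in replicate 2, with all 3 detected of 4 lower in replicate 2. Those of epithelia and choroid plexus summed to 3787 and 1716 CPM, with 7 of the 9 detected lower and 1 higher, and none of the 10 at 0. Those of microglia and leukocytes summed to 5207 and 4484 CPM, with 5 of the 6 detected lower and 0 higher. Those of oligodendrocytes summed to 5027 and 6671 CPM, with 1 of the 2 detected higher and 1 lower. The 3 erythroid markers summed to 47.6 and 59.9 CPM, with 1 higher and 0 lower, and the 13 detected neuronal markers had 8 higher and 4 lower. The part of GC content or cell makeup in the members' differences was not tested, and in bulk tissue fewer cells of a type and less RNA per cell cannot be told apart.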

How the data were processed

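Each library's deposited table holds whole-number read counts by microRNA gene in 3 columns (strand disregarded, strand of the gene, other strand), on mm10 with GENCODE M21 per the deposited text notes. Aligner, counter and trimming: not given in the sources used here. Of all reads, 64.8% in replicate 1 and 67.0% in replicate 2 stood in 4 rows that name no gene (41.6% and 38.2% fitted several places) and were left out. Reads on the strand of the gene were used. All gene IDs matched M21, which gave symbols, coordinates and hairpin sequences. TMM factors and the edgeR exact test used edgeR 4.0.16 in R 4.3.3, DESeq2 1.42.0 gave alternative size factors, and folding used ViennaRNA 2.7.2. The libraries were compared by an exact binomial test with Benjamini-Hochberg adjustment over 389 genes. It was tried only on simulated counts with counting error alone, so its behaviour under wider spread between libraries was not tested. Fully described members were the 10 highest and, among those that passed with 100 or more reads in each, the 5 furthest each way. Hairpins sharing 20 bases with another place counted as shared: Mir411, Mir758, Mir376c, Mir376b and Mir487b. Reads carry no molecular identifiers, so intervals cover counting error only. Members and lists were chosen with earlier results of these data known.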

Additional observations from a re-analysis of the deposited data

How the results depend on the processing

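The members' share was 2.93% to 3.72% with either library left out, which gave 30 to 31 detected members. It was 3.29% with the counts that disregard strand, 1.14% of all reads, and 2.29% without the 5 members that share 20 bases with another hairpin. Without those 5 the median log2 ratio was 0.038 in place of -0.15 (4 of them were lower in replicate 2). The edgeR exact test passed 0 members and 2 of all detected genes, with 3 and 23 at an unadjusted p under 0.05, in place of 26 and 263 by the binomial test. Under library totals 23 members passed, all among the 26, and Mir376b, Mir668 and Mir496a did not (261 of all 389 genes passed). Under DESeq2 size factors all 26 passed, and Mir666 in addition (271 of 389). In the counts that disregard strand, Mir299a, Mir380, Mir376a, Mir539 and Mir409, which overlap a gene on the other strand, were at 0, which left 25 detected members, of which 22 passed (244 of 364 genes). The median log2 ratio of the members was -0.05 under library totals and -0.20 under DESeq2 size factors. With a detection limit of 1 read, 31 members were detected and 26 passed (284 of 607 genes); with 100 reads, 26 were detected and 24 passed (208 of 241). No paired analysis was possible because the design holds 1 group with 1 library for each replicate number. Depth limits the lowest members: Mir758 and Mir544 rest on 5 to 18 reads a library.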

Other observations

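Some seeds of the members recur in other microRNAs. Of the 58 seeds, 9 were also carried by a mature microRNA of the RefSeq table that belongs to no member. For 3 of them the gene of that other microRNA was detected. Among the 9 is the seed of miR-299a-3p, shared with miR-299b-3p, whose gene overlaps Mir299a on the minus strand. The share of all mouse seeds that recur is not given here, so these counts describe the array only. The arm miR-1193-3p shares its seed with miR-370-5p, from the same imprinted region, and Mir370 had 1493 ± 59.6 CPM (SD, n = 2), against 14.0 ± 6.22 for Mir1193. The arm miR-377-5p shares its seed with miR-672-5p, and Mir672 had a mean of 551 CPM against 114 CPM for Mir377. The arm miR-412-3p shares its seed with miR-1983, and Mir1983 had a mean of 202 CPM against 54.0 CPM for Mir412. Which arm of each hairpin gave these reads cannot be told from the counts.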
